A study of Homo sapiens with 6 samples.

Results

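Cancer testis antigens are proteins normally made in germ cells of the testis and silent in most other adult tissues, where their promoters carry DNA methylation, and many tumours switch them on again. Their peptides can be shown to T cells on HLA class I molecules, which has made them targets of vaccines and engineered T cells, and in myeloma MAGEC1 and MAGEA3 are among those known for frequent expression. The account covers 10 such genes, namely CTAG2, MAGEA1, MAGEA3, MAGEA4, MAGEA6, MAGEA12, MAGEC1, MAGEC2, SSX1 and PAGE1. Every probe set annotated to one of them was taken, which gave 13 of the 54675 probe sets on the array, which name 19775 genes in all. MAGEA3 has no probe set of its own and is read only through one shared with MAGEA6.

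RNA was measured on Affymetrix U133 Plus arrays in cells that flow cytometry had sorted by the surface protein CD24, and the study compared the CD24+ cells, which its submitters call cancer stem cells, with the CD24- cells. Both fractions came from each of OPM2, ARP1 and OCI-MY5, 3 human cell lines of multiple myeloma, the cancer of plasma cells. The labels give no genotype, drug or time point. All 6 samples were cells in serum-containing medium, and by the labels they differed in line and fraction. Each line gave 1 CD24+ and 1 CD24- array, so each fraction had 3 arrays, their number limits the precision, and nothing in the labels says that cultures were repeated. A lower signal from sorted cells can mean fewer cells with the transcript or less of it per cell, and bulk arrays cannot tell these apart.

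The values are MAS5 intensities on a linear scale, where each array's mean without its lowest and highest 2% of values is 500.1. A probe set was counted as on in an array at or above that mean. It was counted as off at or below 96.4, the highest value at the TrpnX controls, whose bacterial target is not meant to be in the sample. A line was on or off where both of its arrays were, low where both lay between these limits, and mixed otherwise. The genes were chosen for this on and off pattern, so their levels are given as a description with no test between lines.

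All 10 genes lie on the X chromosome, in the order SSX1, PAGE1, MAGEC1, MAGEC2, MAGEA4, MAGEA3, MAGEA12, MAGEA6, MAGEA1 and CTAG2 from the end of the short arm (RefSeq, GRCh38.p14). Between MAGEA3 and MAGEA6 the annotation lists CSAG2, LOC124905224, MAGEA2B, CSAG1, MAGEA12, CSAG4, MAGEA2 and CSAG3. The RefSeq table held 13 promoter windows for 8 of the genes, each from 250 bases before to 50 bases after an annotated start, and none for CTAG2 or MAGEA1. The whole 300-base windows of MAGEA3 and MAGEA6 were identical at 300 of 300 bases.

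The stretches below end at or before the transcription start and are shown because the members differ in state while sharing promoter letters. They are RefSeq sequences of GRCh38.p14, 5′ to 3′ on the strand of the gene. Capitals mark GGATGTG, which contains the GGA at the core of the sites that ETS family transcription factors bind, and CTGACTTGCGC, the longest stretch found in all 9 windows that MAGEA3, MAGEA6, MAGEA12 and MAGEA4 have between them. The positions are chrX:152698544-152698793 on the plus strand for MAGEA3, chrX:152769741-152769800 on the minus strand for MAGEA6, chrX:152733697-152733756 on the plus strand for MAGEA12, chrX:151912414-151912473 on the plus strand for MAGEA4 and chrX:141903825-141903884 on the plus strand for MAGEC1.
MAGEA3: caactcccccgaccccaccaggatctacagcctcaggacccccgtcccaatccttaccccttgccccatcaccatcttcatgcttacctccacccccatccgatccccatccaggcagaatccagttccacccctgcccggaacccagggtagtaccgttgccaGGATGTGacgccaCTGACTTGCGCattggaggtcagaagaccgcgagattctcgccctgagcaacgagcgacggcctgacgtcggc
MAGEA6: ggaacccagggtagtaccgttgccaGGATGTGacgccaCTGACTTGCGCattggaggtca
MAGEA12: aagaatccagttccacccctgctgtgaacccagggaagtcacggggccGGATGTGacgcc
MAGEA4: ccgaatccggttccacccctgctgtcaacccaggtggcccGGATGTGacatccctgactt
MAGEC1: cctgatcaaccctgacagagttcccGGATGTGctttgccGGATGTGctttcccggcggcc

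Both motifs were chosen after these windows were seen and were searched on both strands, and they do not overlap. GGATGTG stood in 11 of the 13 windows, covering MAGEA3, MAGEA6, MAGEA12, MAGEA4, MAGEC1 and MAGEC2, and in 4.29% of all 35116 windows in the table. MAGEC1 held it 3 times, once on the opposite strand, and the windows of SSX1 and PAGE1 did not hold these letters. CTGACTTGCGC stood in 9 of the 13 windows, those of MAGEA3, MAGEA6, MAGEA12 and MAGEA4, and in 0.0484% of all windows. In the first window of MAGEA12 and the first of the 5 of MAGEA4 it starts 1 base after or 7 bases before the transcription start, so it runs past the stretches printed. The 17 windows that held it in the whole table belonged to 11 genes, and besides the 4 members these were MAGEA2, MAGEA2B, CSAG1, CSAG3, MAGEA3-DT, MAGEA6-DT and ABCA3. CpG pairs, the sites of DNA methylation, numbered 5 to 19 per window with a median of 13, against a median of 14 over all windows. CTGACTTGCGC was chosen as common to the windows of MAGEA3, MAGEA6, MAGEA12 and MAGEA4, so its presence in genes of unlike state follows from that choice. GGATGTG stood in MAGEA3 and MAGEA6, on in all 3 lines, and in MAGEA4 and MAGEC1, on in OPM2 alone. It also stood in MAGEC2, which was on in no line, as the levels below show.

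MAGEA3 and MAGEA6 were bright in all 3 lines and brightest in OPM2. Their protein products bind the ubiquitin ligase TRIM28 and are known to turn it against AMPK. The shared MAGEA3 and MAGEA6 probe set read 29072 and 30801 in CD24+ and CD24- cells of OPM2, 8065 and 7756 in those of ARP1, and 9944 and 9273 in those of OCI-MY5. The MAGEA6 probe set read 27951 and 30592 in OPM2, 7537 and 7702 in ARP1, and 9844 and 9819 in OCI-MY5, CD24+ first in each pair. Both OPM2 arrays lay above all 4 others at both probe sets, and the fractions of a line lay close together. OPM2 was 3.78-fold higher than ARP1 and 3.12-fold higher than OCI-MY5 at the shared probe set, and 3.84-fold and 2.97-fold higher at the MAGEA6 one. ARP1 lay under OCI-MY5 at both without overlap, at 0.824 and 0.775 times its level. All folds are ratios of the geometric mean intensity over the 2 arrays of a line.

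MAGEA1, the family member through which tumour antigens seen by T cells were first cloned, followed the same order. It read 7438 and 10391 in CD24+ and CD24- cells of OPM2, 1739 and 1948 in those of ARP1, and 1838 and 2109 in those of OCI-MY5. OPM2 was 4.78-fold higher than ARP1 and 4.47-fold higher than OCI-MY5, and the arrays of ARP1 and OCI-MY5 overlapped. MAGEA12, which lies between MAGEA3 and MAGEA6, read 13178 and 15378 in OPM2, 318 and 734 in ARP1, and 718 and 742 in OCI-MY5. It was on in OPM2 and OCI-MY5 and mixed in ARP1, where only the CD24- array passed the limit. OPM2 was 29.4-fold higher than ARP1 and 19.5-fold higher than OCI-MY5. The IDs of these 4 probe sets end in x_at, which the maker uses for probes that can also bind related transcripts, and the part of that binding in the ARP1 and OCI-MY5 signal was not tested.

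**Figure D1:**
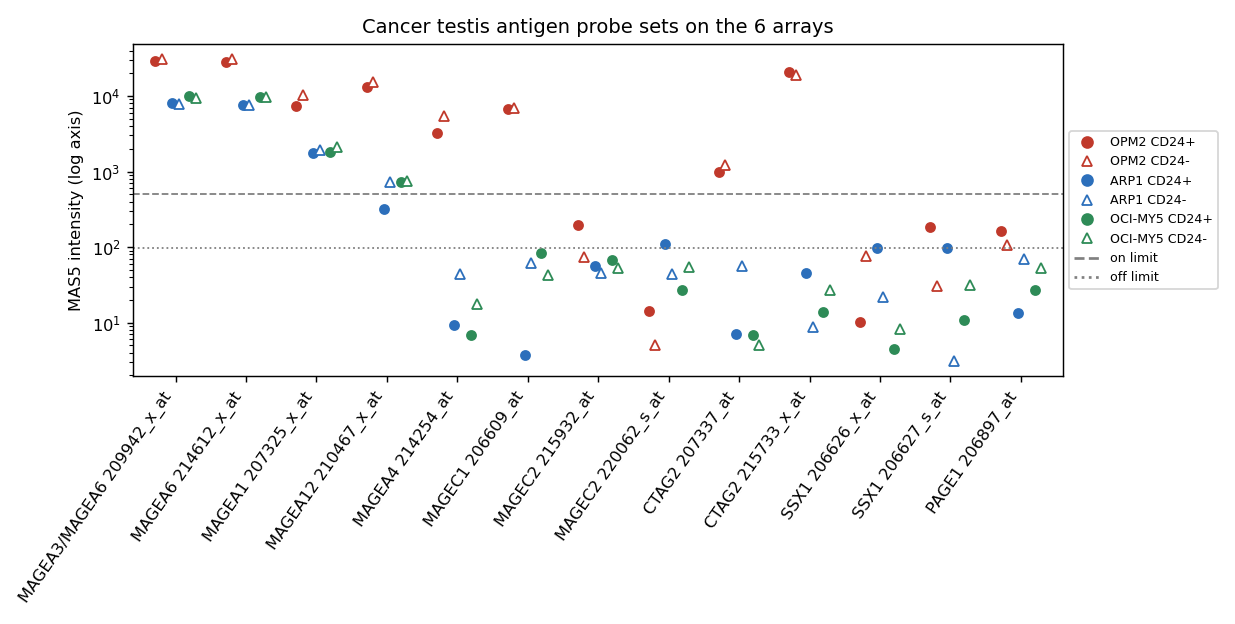
Intensity of the 13 cancer testis antigen probe sets on the 6 arrays, on a log axis, with each point 1 array, filled circles for CD24+ cells and open triangles for CD24- cells. MAGEA3/MAGEA6, MAGEA6 and MAGEA1 lie above the dashed on limit of 500.1 on every array, while MAGEA4, MAGEC1 and CTAG2 lie above it on the OPM2 arrays and below the dotted off limit of 96.4 on the other 4.

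MAGEA4, MAGEC1 and CTAG2 were on in OPM2 and off in ARP1 and OCI-MY5, at all 4 of their probe sets. MAGEA4, a target of engineered T cells in synovial sarcoma, read 3202 and 5396 in CD24+ and CD24- cells of OPM2, 9.44 and 43.9 in those of ARP1, and 6.86 and 17.9 in those of OCI-MY5. That is at least 43.1-fold higher in OPM2 than in either line, taking 96.4 in place of the dimmer values, as in all bounds given here. MAGEC1, also called CT7, read 6768 and 6856 in OPM2, 3.70 and 60.9 in ARP1, and 83.1 and 43.3 in OCI-MY5, a difference of at least 70.7-fold. Both OPM2 arrays lay far above the other 4 for each gene, and the low values fall in the range of the TrpnX controls, 2.23 to 96.4, so they have no order.

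CTAG2, which encodes LAGE-1 and is a close relative of CTAG1B, the gene of the antigen NY-ESO-1, has 2 probe sets here. The first, whose ID ends in plain _at, read 989 and 1226 in CD24+ and CD24- cells of OPM2, 6.96 and 56.5 in those of ARP1, and 6.95 and 5.07 in those of OCI-MY5. The second, an x_at probe set, read 20986 and 18878 in OPM2, 45.1 and 8.64 in ARP1, and 13.7 and 27.0 in OCI-MY5. Both gave the same state in every line, and OPM2 was at least 11.4-fold and at least 207-fold higher at them. Across the 4 probe sets of MAGEA4, MAGEC1 and CTAG2 the ARP1 and OCI-MY5 arrays ran from 3.70 to 83.1 with a median of 15.8.

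MAGEC2, SSX1 and PAGE1 were on in no line. MAGEC2, a MAGE-C protein that also binds TRIM28, read 197 and 72.9 in CD24+ and CD24- cells of OPM2, 56.9 and 45.5 in those of ARP1, and 67.7 and 53.5 in those of OCI-MY5 at a probe set with no suffix. At its other probe set, which ends in s_at, it read 14.4 and 5.13 in OPM2, 110 and 44.7 in ARP1, and 27.4 and 54.2 in OCI-MY5. The probe sets disagree on which array was highest, OPM2 CD24+ at the first and ARP1 CD24+ at the second. SSX1, a transcriptional repressor known as the fusion partner of SS18 in synovial sarcoma, read 187 and 30.6 in OPM2, 96.3 and 3.07 in ARP1, and 10.8 and 31.3 in OCI-MY5 at its s_at probe set. At its x_at probe set it read 10.1 and 76.0 in OPM2, 97.4 and 22.1 in ARP1, and 4.43 and 8.29 in OCI-MY5. Its ARP1 CD24+ values of 96.3 and 97.4 lie on either side of the off limit. PAGE1, a member of a family related to GAGE, read 161 and 106 in OPM2, 13.5 and 69.5 in ARP1, and 27.3 and 52.6 in OCI-MY5. Both OPM2 arrays were the highest for PAGE1, in the low range between the limits.

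The OPM2 CD24+ array stood apart, and most of the highest values of these dim probe sets came from it. Its median intensity was 135 against 69.0 to 84.2 on the other 5 arrays, and its bacterial spike-in controls had a geometric mean of 37362 against 6175 to 7399. The 95th percentile of 107 olfactory receptor probe sets, genes silent in most tissues outside the nose, was 235 there and 93.8 to 129 on the others. The TrpnX value of 96.4 is also from this array. The 5 probe sets on in no line ran from 3.07 to 197 with a median of 49.0 over all arrays, and up to 110 without that array. The part of the array's higher background in its values of 197, 187 and 161 was not tested. With that array left out but the off limit kept at 96.4, the states of MAGEA4, MAGEC1 and CTAG2 were the same. A TrpnX limit taken without that array was not tested.

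By state, OPM2 had 8 of the 13 probe sets on, 1 low, 2 off and 2 mixed, ARP1 had 3 on, 7 off and 3 mixed, and OCI-MY5 had 4 on and 9 off. The 3 that were on in all lines compare with 16.3% of the 54613 non-control probe sets, and the 4 that were on in OPM2 and off in both other lines compare with 0.178%. None was off on all 6 arrays, as 29.4% of all probe sets were, and none was on in ARP1 and OCI-MY5 and off in OPM2, as 0.286% were. Line means lay at least 8-fold apart at 5 members, against 2.47% of all probe sets. Because the genes were picked for these states, the counts describe the choice.

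ARP1 and OCI-MY5 resembled each other at these genes. No member was on in one of them and off in the other, a state found at 0.0604% of all probe sets for ARP1 over OCI-MY5 and at 0.022% for the reverse. In log2(intensity + 16), a scale that shrinks differences of dim probe sets, the median member difference was −0.10 for ARP1 minus OCI-MY5, where all probe sets had 0.06. It was 1.94 for OPM2 minus ARP1 and 1.64 for OPM2 minus OCI-MY5, where all probe sets had 0.13 and 0.19. The likeness was not limited to these genes: limma, with the fractions of a line as its 2 replicates, called 71 probe sets higher and 24 lower in ARP1 than in OCI-MY5, against 1687 and 2555 for OPM2 over ARP1 and 1849 and 2325 for OPM2 over OCI-MY5. The labels do not say how ARP1 and OCI-MY5 are related, and whether they are independent of each other was not tested, so the contrasts of OPM2 with them may not be separate observations. Single arrays move these counts. With 1 array of ARP1 or OCI-MY5 left out, 0 probe sets were called between those lines, and with the OPM2 CD24+ or CD24- array left out 535 and 504 were. Calls for OPM2 against ARP1 came to 506 and 533 without the CD24+ or CD24- array of ARP1 and to 8184 without the CD24- array of OPM2. Those against OCI-MY5 came to 810 and 782 without its CD24+ or CD24- array and to 8378 without the CD24- array of OPM2. In such fits the lone array of a line is taken to vary like the other lines.

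The markers fixed for other cell types were at low values on these arrays. All 9 plasma cell marker genes had a probe set that was on in a line, and of their 18 probe sets 13 were on in OPM2, 12 were in ARP1 and 11 were in OCI-MY5. No probe set of the germ cell and testis, B cell, T cell, myeloid or stromal markers was on in any line. Summed over 9 probe sets, the germ cell and testis markers reached 229 to 994 per array. Of these 9 probe sets 5 were off on all 6 arrays. DDX4, which defines germ cells, read at most 6.82.

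Other cancer testis genes of the X chromosome split between the lines in both directions. Of 83 listed genes, 62 had a probe set and there were 70 probe sets, of which 16 were on in a line and 32 off on all arrays. Of these, 7 were on in OPM2 and off in the other 2 lines, and 3 were on in ARP1 and OCI-MY5 and off in OPM2. In the limma fit 20 of the 70 passed the brightness filter, and 10 were higher and 5 lower in OPM2 than in ARP1, where 6.18% and 9.37% of all tested probe sets were. The counts against OCI-MY5 were again 10 and 5 of 20, where 6.78% and 8.52% of all were. The filter takes the mean over all 6 arrays, so a probe set can pass it only through the lines where it is bright. These shares of the 20 are therefore not free of the filter. With no filter 8 of the 70 were higher and 3 lower in either contrast. Of all 54613 probe sets 470 were then higher and 813 lower in OPM2 than in ARP1, and 548 and 644 than in OCI-MY5. None of the 20 was called between ARP1 and OCI-MY5, where 0.26% of all were higher and 0.088% lower in ARP1.

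The antigens higher in OPM2 included the family of CTAG2. One of 3 probe sets shared by CTAG1A and CTAG1B read 27706 and 23536 in CD24+ and CD24- cells of OPM2, 23.5 and 3.97 in those of ARP1, and 8.45 and 9.16 in those of OCI-MY5. OPM2 was at least 265-fold higher, and the other 2 had the same state (limma, adjusted p = 0.000405 to 0.00542 against ARP1 over the 3). The IDs of all 3 end in x_at, and the part of CTAG2 transcripts in their signal was not tested. Nor was the part of CTAG1A and CTAG1B transcripts in the signal of the x_at probe set of CTAG2. The 4 shared GAGE probe sets, which cannot be told apart by member gene, were on in OPM2, and they were off on every other array except one at 103 in ARP1 CD24- cells. One of them, off in both other lines, read 1137 and 1106 in OPM2, 39.1 and 74.9 in ARP1, and 45.0 and 63.0 in OCI-MY5. That is at least 11.6-fold higher in OPM2 (adjusted p = 0.00324 against ARP1 and 0.0031 against OCI-MY5). The IDs of all 4 end in x_at. A further probe set, of GAGE1 alone and ending in plain _at, was off in every line, with 21.1 and 5.12 in CD24+ and CD24- cells of OPM2.

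Within the MAGEA3 to MAGEA6 stretch of the chromosome, neighbours differed in state. The probe set shared by CSAG2, next to MAGEA3, and CSAG3, next to MAGEA6, read 760 and 875 in CD24+ and CD24- cells of OPM2, 56.2 and 45.7 in those of ARP1, and 50.6 and 62.7 in those of OCI-MY5. It was off in ARP1 and OCI-MY5, where the MAGEA3 and MAGEA6 probe sets beside it were on. OPM2 was at least 8.46-fold higher (limma, adjusted p = 0.00183 against ARP1 and 0.00186 against OCI-MY5). One of 2 probe sets shared by MAGEA2 and MAGEA2B was on in all lines, with 2053 and 2446 in OPM2, 1017 and 930 in ARP1, and 1194 and 1020 in OCI-MY5. It was higher in OPM2 by 1.19 than in ARP1 and by 1.01 than in OCI-MY5 on the log2 scale (adjusted p = 0.0281 and 0.0414). The other was low in ARP1 and on in OPM2 and OCI-MY5.

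Other antigens were on in ARP1 and OCI-MY5 and off in OPM2, the reverse of MAGEC1. MAGEB1, a type I MAGE gene of the short arm of the X chromosome, read 3.43 and 1.99 in CD24+ and CD24- cells of OPM2, 3690 and 4060 in those of ARP1, and 3628 and 3420 in those of OCI-MY5. It was at least 40.2-fold lower in OPM2 than in ARP1 and at least 36.6-fold lower than in OCI-MY5 (limma, adjusted p = 0.000405 and 0.000534). SAGE1, an antigen first found in sarcoma, read 4.17 and 9.63 in OPM2, 1310 and 1391 in ARP1, and 1400 and 1070 in OCI-MY5. It was at least 14.0-fold and at least 12.7-fold lower in OPM2 (adjusted p = 0.000973 and 0.000919).

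The OPM2 arrays of both genes lay in the off range and did not overlap with the others. The s_at probe set shared by CT45A genes read 94.7 and 9.51 in CD24+ and CD24- cells of OPM2, 1561 and 1560 in those of ARP1, and 1686 and 2547 in those of OCI-MY5, and was at least 16.2-fold and at least 21.5-fold lower in OPM2 (adjusted p = 0.0145 and 0.0117). The remaining calls of this direction were the other CT45A probe set and FATE1, which is named here after its values were seen. Without either ARP1 array 9 probe sets of the list were called against ARP1, and without the OCI-MY5 CD24+ array 9 were called against OCI-MY5.

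**Figure D2:**
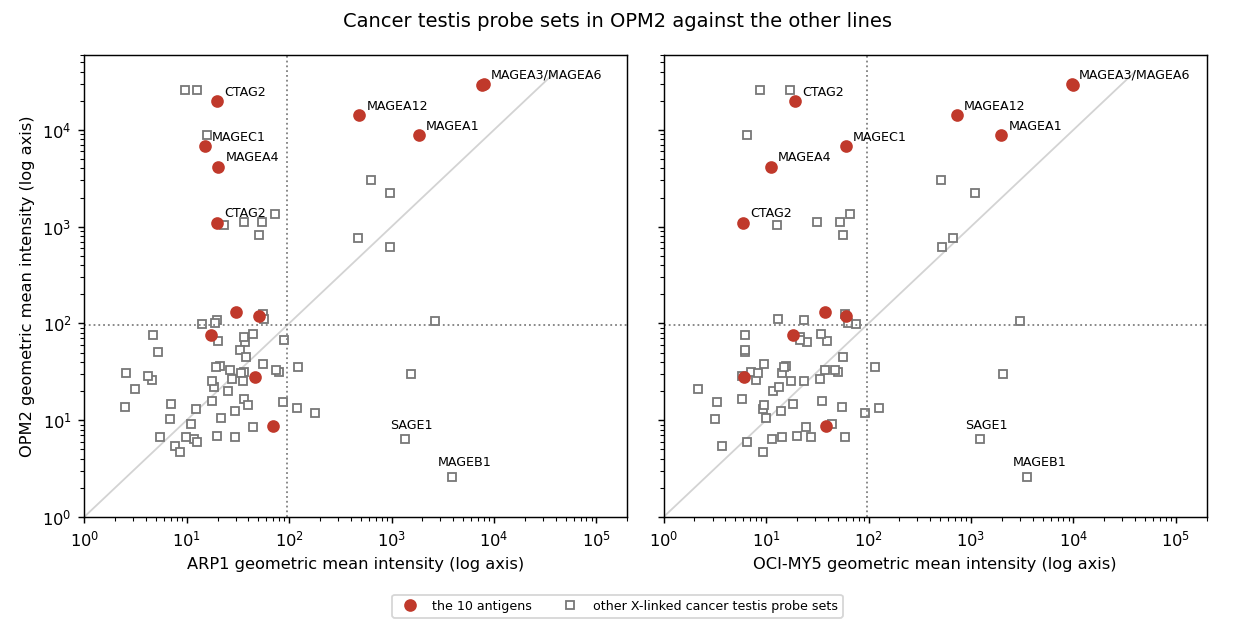
Geometric mean intensity of each probe set in OPM2 (vertical log axis) against ARP1 and OCI-MY5 (horizontal log axes), for the 10 antigens as filled circles and the other X-linked cancer testis probe sets as open squares, with dotted lines at the off limit of 96.4. CTAG2, MAGEA4 and MAGEC1 lie at the upper left with OPM2 on and the other line off, and MAGEB1 and SAGE1 lie at the lower right with the reverse.

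Of 53 further cancer testis genes, nearly all of other chromosomes, 49 had a probe set, and 15 of their 82 probe sets were on in all 3 lines. In OPM2 4 of the 25 tested were higher and 3 lower than in ARP1, and 2 were higher and 1 lower than in OCI-MY5, where the shares over all tested probe sets were the 6.18%, 9.37%, 6.78% and 8.52% given above. With median centring 1 was higher and 1 lower than in ARP1, and 0 and 1 against OCI-MY5. With no filter 1 of the 82 was higher and 1 lower in either contrast. Without either ARP1 array 0 were called against ARP1, and without the OPM2 CD24- array 12 were called against ARP1 and 10 against OCI-MY5. ACTL8, an actin-like gene, was the 1 on in ARP1 and OCI-MY5 and off in OPM2, with 87.8 and 6.73 in CD24+ and CD24- cells of OPM2, 1301 and 1334 in those of ARP1, and 2053 and 1939 in those of OCI-MY5, at least 13.7-fold and at least 20.7-fold lower in OPM2 (limma, adjusted p = 0.0154 and 0.0113). PBK, a kinase of dividing cells, was higher in OPM2 by 1.33 than in ARP1 and by 1.48 than in OCI-MY5 on the log2 scale (adjusted p = 0.0252 and 0.0187). NUF2, a kinetochore protein, was higher by 1.26 and 1.18 (adjusted p = 0.0372 and 0.0439). KIF2C went the other way at its s_at probe set, with −1.30 against ARP1 and −0.26 against OCI-MY5 (adjusted p = 0.0338 and 0.521). At its other probe set the differences were −0.30 and −0.30 (adjusted p = 0.450 and 0.443). SPA17, a sperm protein, was higher than in ARP1 by 1.42 (adjusted p = 0.0189), with 0.90 against OCI-MY5 (adjusted p = 0.0555). PRAME, a target of T cells in melanoma, was on in all lines, with 639 and 629 in OPM2, 1267 and 1138 in ARP1, and 816 and 700 in OCI-MY5. It was lower in OPM2 than in ARP1 by a difference of −0.90 (adjusted p = 0.0471), and against OCI-MY5 the difference was −0.25 (adjusted p = 0.451).

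The type II MAGE genes share the MAGE domain but are made in many tissues. Of 9 tested probe sets none was higher in OPM2, 7 were lower than in ARP1, where 9.37% of all were, and 2 were lower than in OCI-MY5, where 8.52% of all were. None was called between ARP1 and OCI-MY5. Their median differences were −1.90 for OPM2 minus ARP1, −0.91 for OPM2 minus OCI-MY5 and 0.89 for ARP1 minus OCI-MY5, against 0.00, 0.07 and 0.06 over all tested probe sets. The 9 passed the filter on the mean over all 6 arrays, so these shares and medians are not free of it. With no filter 2 of 13 probe sets were lower in OPM2 than in ARP1, and 1 was lower than in OCI-MY5. Of all 54613 probe sets 813 and 644 were then lower. MAGED1, an adaptor protein of cell death signalling, read 809 and 1199 in CD24+ and CD24- cells of OPM2, 10648 and 11401 in those of ARP1, and 6149 and 6291 in those of OCI-MY5. The OPM2 arrays lay below the other 4, by differences of −3.46 and −2.64 (limma, adjusted p = 0.00284 and 0.00537). MAGED2 was lower in OPM2 than in ARP1 at both of its probe sets, by −1.49 and −1.20 (adjusted p = 0.0149 and 0.0261), but against OCI-MY5 the differences were 0.04 and 0.29 (adjusted p = 0.924 and 0.386). MAGEF1 was lower than in ARP1 by −1.95 (adjusted p = 0.0208), with −0.91 against OCI-MY5 (adjusted p = 0.119). With either ARP1 array left out 1 type II probe set was called against ARP1, and with either OCI-MY5 array left out 0 were called against OCI-MY5.

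Among genes that methylate DNA or act on chromatin at such promoters, DNMT3A, which sets new methylation, was lower in OPM2. It read 186 and 146 in CD24+ and CD24- cells of OPM2, 1022 and 1072 in those of ARP1, and 636 and 701 in those of OCI-MY5, by differences of −2.55 and −1.92 (limma, adjusted p = 0.00395 and 0.00826). E2F6, a repressor of germ cell genes, was lower too, with 865 and 1036 in OPM2, 3019 and 3613 in ARP1, and 2836 and 2716 in OCI-MY5 (adjusted p = 0.0102 and 0.0148). Over the list of 79 probe sets 64 were tested, 3 were higher and 5 lower in OPM2 than in ARP1, and 0 were higher and 5 lower than in OCI-MY5. All of these are under the shares of 6.18%, 9.37%, 6.78% and 8.52% over all tested probe sets. With no filter 0 of the 79 were higher and 1 was lower than in ARP1, and 0 were called against OCI-MY5. With either ARP1 array left out 0 of them were called against ARP1, with either OCI-MY5 array left out 0 against OCI-MY5, and without the OPM2 CD24- array 20 and 18.

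The other methylation genes named showed smaller differences. DNMT1, which copies methylation after replication, ran from 6243 to 9167 over the 6 arrays, with differences of −0.13 and −0.31 for OPM2 minus ARP1 and minus OCI-MY5 (limma, adjusted p = 0.727 and 0.411). UHRF1, which guides DNMT1, differed by 0.04 and −0.11, and DNMT3B by 0.06 and 0.95 (adjusted p = 0.102 for the larger). CTCFL, a germ cell relative of CTCF, was too dim to be tested, at 5.84 to 130. Of the protein partners, TRIM28 read 3140 and 3194 in OPM2, 2433 and 2617 in ARP1, and 2834 and 2861 in OCI-MY5, with differences of 0.33 and 0.15 (adjusted p = 0.303 and 0.621). PRKAA1, the AMPK subunit that MAGEA3 and MAGEA6 are known to bring to TRIM28, differed by −0.25 and −0.33 (adjusted p = 0.733 and 0.643). In the list of partners 1 probe set was higher and 1 lower of 44 tested against ARP1, and none was called against OCI-MY5, all under the shares over all tested probe sets, while without the OPM2 CD24- array 10 and 8 were.

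**Figure D3:**
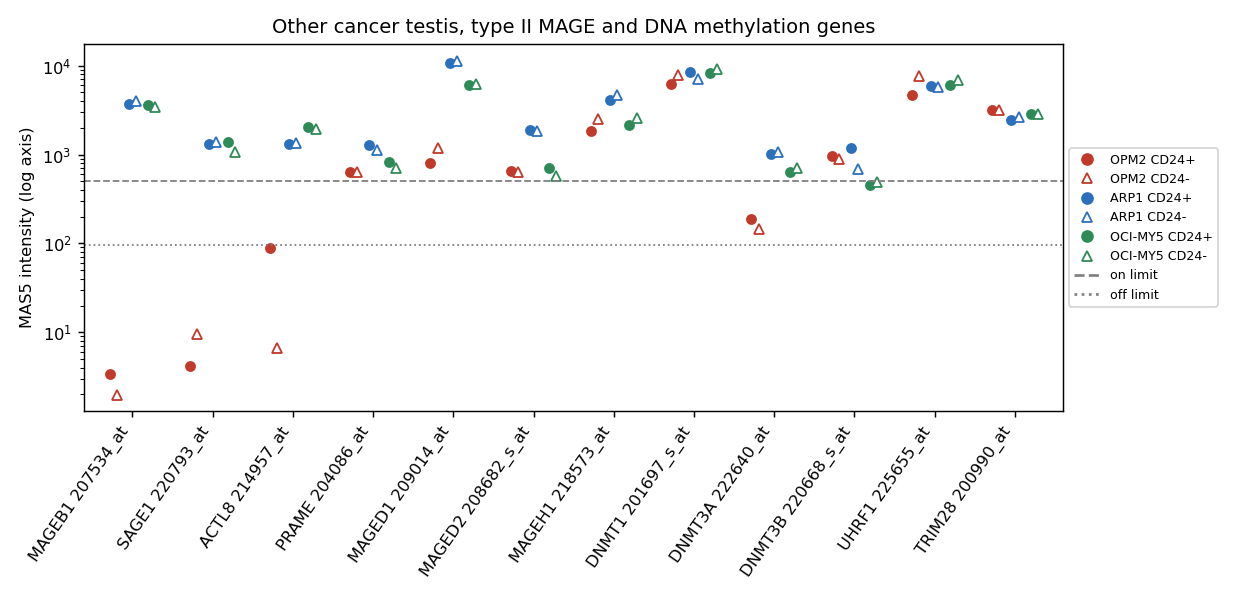
Intensity on the 6 arrays (log axis) of cancer testis genes outside the 10, type II MAGE genes, DNA methylation genes and TRIM28, with filled circles for CD24+ and open triangles for CD24- cells. MAGEB1, SAGE1 and ACTL8 are below the dotted off limit of 96.4 on the OPM2 arrays and above 500.1 on the others, and MAGED1 and DNMT3A are lowest in OPM2.

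The study's own comparison, CD24+ against CD24- cells, showed no called difference at the 10 antigens. In no line was a member on in one fraction and off in the other. Of the 13 probe sets 9 passed the brightness filter. Limma called none of these 9, and it called 0.0% of the 27281 probe sets tested in either direction (0 called; 359 at an unadjusted p under 0.05, none of them a member). Each of the 9 had an adjusted p of 1, and both SSX1 probe sets, PAGE1 and the s_at probe set of MAGEC2 were too dim to be tested. The mean difference was 0.02 ± 0.10 for the shared MAGEA3 and MAGEA6 probe set, −0.05 ± 0.07 for MAGEA6 and −0.28 ± 0.18 for MAGEA1 (log2, SD over the 3 lines). The 95% intervals of these differences, −1.66 to 1.70, −1.72 to 1.62 and −2.29 to 1.73, include changes of over 2-fold either way, because the fit counts the distance between lines as error.

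At the deposited scaling, the members that were on differed little between the fractions within the lines. In OPM2 the differences of the 8 that were on ran from −0.75 at MAGEA4 to 0.15 at the second CTAG2 probe set, and 7 were lower in CD24+ cells. Of all probe sets on in OPM2, 58.8% were lower in CD24+ cells, with a median of −0.09 where the members had −0.18. In ARP1 the 3 that were on ran from −0.16 to 0.06, and in OCI-MY5 the 4 that were on ran from −0.20 to 0.10. MAGEA1 was lower in CD24+ cells in all 3 lines, by −0.48 in OPM2, by −0.16 in ARP1 and by −0.20 in OCI-MY5. The ratio of 3′ to 5′ ACTB signal, which grows as RNA or its copies get shorter, was 27.1 in OPM2 CD24+ cells against 7.54 in its CD24- cells. It was 2.63 against 2.47 in ARP1 and 9.36 against 23.2 in OCI-MY5, and its part in these differences was not tested.

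Differences of at least 2-fold between the fractions were found only at probe sets that were not on in the line. With median centring of the arrays this did not hold in OPM2. There 7 members passed 2-fold, more than the 5 members that were not on, so some that were on passed too. At the deposited scaling 3 members passed 2-fold in OPM2 (36.9% of all probe sets). ARP1 had 9 such members (21.2% of all) and OCI-MY5 had 0 (21.4% of all). In OPM2 they were MAGEC2 at 1.26 and the SSX1 probe sets at −1.82 and 2.12, so those of SSX1 had opposite signs. In ARP1 4 were higher and 5 lower in CD24+ cells, where 10.2% of all probe sets were lower. In OPM2 2 were higher and 1 lower, where 25.5% of all were higher and 11.4% lower, and in OCI-MY5 11.6% of all were higher and 9.77% lower. In ARP1 MAGEA12 was mixed, at 318 against 734, a difference of −1.17. MAGEA4 was lower in CD24+ cells in all 3 lines, by −0.75 in OPM2, by −1.24 in ARP1 and by −0.57 in OCI-MY5, but in ARP1 and OCI-MY5 both values were in the off range. With 1 array per line and fraction these differences have no replicate check.

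**Figure D4:**
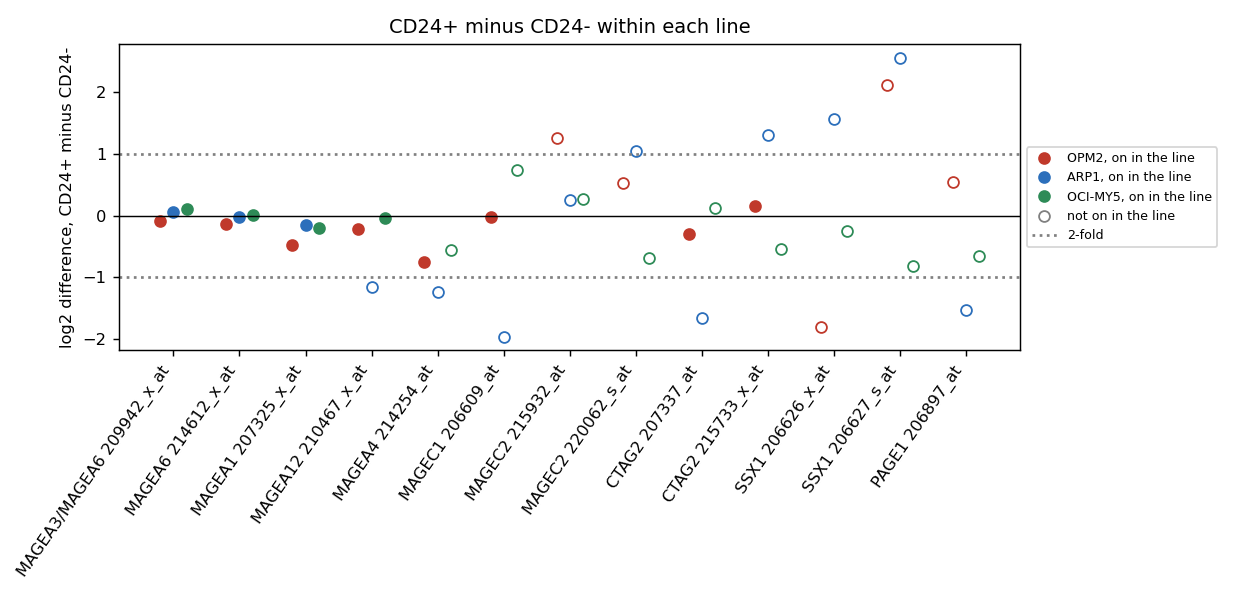
Difference of CD24+ minus CD24- cells in each line, as log2(intensity + 16), for the 13 probe sets, with filled points where the probe set was on in that line and open points where it was not, and dotted lines at 2-fold. Filled points lie between −0.75 and 0.15, and all points past the dotted lines are open.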

How the data were processed

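RNA of 6 samples was measured on 1 array each. Per the submitters' processing notes, the authors computed MAS5 values with Affymetrix Expression Console 1.1. The deposited values are intensity on a linear scale, and no detection calls were used here. Of the non-control probe sets, 41097 had 1 gene symbol, 1801 several and 11721 none in the platform's annotation, updated through the RefSeq table of GRCh38.p14. Shared probe sets are named as shared.

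Values were transformed as log2(intensity + 16). Limma 3.58.1 was fitted under R 4.3.3 with lmFit and eBayes (Benjamini-Hochberg at 0.05, two-sided) on 27281 probe sets at or above the median brightness, without a block. The line fit and a fraction fit with the line as a block were also run on simulated data. The fraction fit without a block was not run on them. The numbers in the titles stand for lines, so they pair the samples; deviations from group means correlated at 0.633 to 0.704 within lines and at −0.527 to 0.0949 between lines. Between lines, p-values measure the spread between the 2 fractions of a line. The rule named all members and, from each list, up to 8 genes with the largest line differences among probe sets on in a line. It added methylation genes, PRAME, TRIM28 and PRKAA1. Values are given above for only part of the genes that the rule named from the lists. Members and lists were chosen with earlier results of these data known. Alternatives were other pseudocounts, filters, scalings, limits and folds, 1 probe set per gene, blocks, and leaving out arrays or lines. Promoters were RefSeq windows searched in Python 3.11.15.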

Additional observations from a re-analysis of the deposited data

How the results depend on the processing

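The 8 bright members kept the sign of OPM2 minus ARP1 and OPM2 minus OCI-MY5 in all 160 alternative values. Of these, 122 moved by less than the spread within lines. The 4 probe sets on in OPM2 alone stayed 4 without any single array, with the off limit kept at 96.4. They were 3 with quantile normalization, with median centring and with the on limit doubled. With the line as a replicate block, the pairing that the titles give, limma still called 0 probe sets between CD24+ and CD24- cells (1367 at an unadjusted p under 0.05, 1 of them a member), as it did under every other alternative run. The block thus changed no call. Without probe sets ending in x_at, s_at or a_at, 3 members were on in OPM2, while ARP1 had 0 and OCI-MY5 had 0. The count off on every array was 4 with the limit from olfactory receptors and 0 to 2 without single arrays; the count at least 8-fold apart was 0 without OPM2, and otherwise up to 5. Members past 2-fold between fractions in OPM2, 3 at the main setting, were 1 with a pseudocount of 64, 7 with median centring and 1 at 4-fold. In ARP1 the 9 became 2 with a pseudocount of 64 and 1 at 4-fold, and in OCI-MY5 the 0 became 2 with a pseudocount of 1 and 4 at 1.5-fold. Probe sets called for OPM2 minus ARP1, 4242 in all, were 1283 with no filter, 2719 with median centring and 506 to 8184 without single arrays. For OPM2 minus OCI-MY5 the 4174 became 1192 with no filter and 782 to 8378 without single arrays. For ARP1 minus OCI-MY5 the 95 became 3 and 572 with pseudocounts of 1 and 64, 1 with no filter, 1553 with the filter at the 75th percentile, 25 with quantile normalization, 2 with the fraction as a block and 0 to 535 without single arrays. The 15 other X-linked cancer testis probe sets called became 5 in both OPM2 contrasts with the 75th percentile filter, which tests 7 of them, and 9 to 17 against ARP1 and 9 to 16 against OCI-MY5 without single arrays. Median centring moved the median of all probe sets tested to −0.29 for OPM2 minus ARP1 and −0.38 for OPM2 minus OCI-MY5, where it had been 0.00 and 0.07, and split the calls into 628 higher and 2091 lower in OPM2 than in ARP1, 672 and 2249 against OCI-MY5, and 69 and 40 in ARP1 against OCI-MY5. Of 156 alternative counts for the other 4 gene lists, 70 moved by over 1.5 times, 45 of them downward. Other causes of these moves were not tested. Signal over background limits the dim probe sets.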
